A study of Rattus norvegicus with 132 samples.

Results

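Collagen chain genes were followed here in the gut epithelium of irradiated Sprague Dawley rats. Members were taken by name: every row of the deposited count tables whose symbol had the form Col, a number, the letter a and a number. The rule found 44 rows among 21837 genes, and the 35 with a mean of at least 0.5 CPM (counts scaled to library size) in any group are described. No fold change entered the rule, but the limit used measured levels in all groups, irradiated ones included. Just inside this limit lay Col4a6, Col9a3 and Col11a1, with highest group means of 0.633, 0.705 and 0.740 CPM. Just outside lay Col9a2, Col23a1 and Col22a1, at 0.439, 0.324 and 0.320 CPM.

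The RNA-seq libraries came from colon or jejunum epithelium, with 6 libraries in each of 22 groups. Oral compound Kushen powder (O_CKP; called a pill in some labels) was set against its oral vehicle, water (O_VC). Intraperitoneal compound Kushen injection (I_CKI) was set against its vehicle, a HEPES buffer (25 mM) that held Tween-80 at 0.25% (I_VC). All of these rats, and an untreated set (NT), had been irradiated over the abdomen in 5 fractions of 4 Gy each, and their epithelium was collected on day 7 or day 4. Non-irradiated, untreated rats (NI) gave one further group per tissue. All libraries of the injected groups belonged to a library series of their own, the third by the leading digit of the library name, in which no library was from a non-irradiated rat. Each of the other groups held 3 libraries of series 1 and 3 of series 2.

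Collagens are extracellular matrix proteins whose chains wind together into a helix. Fibril-forming chains make the ropes of connective tissue and are produced mainly by fibroblasts and related stromal cells. Type IV chains make the sheet-like network of basement membranes, on which the gut epithelium rests. Col17a1 is different in kind: it spans the plasma membrane of epithelial cells and ties hemidesmosomes to the basement membrane. Chains differ in length and the values below are not divided by length, so levels are compared between groups and never between genes.

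Totals ran between 17.2 and 19.8 M (mega) counts per library, with a median of 19.1 M. Epithelial markers (Epcam, Cdh1, keratins and others, 9 genes) had a median summed level of 15514 CPM in non-irradiated colon and 30361 CPM in non-irradiated jejunum, so the label of epithelium held. All 8 fibroblast markers were nevertheless detected in the non-irradiated colon, at a summed 8.47 to 10.3 CPM. Stromal chains are therefore read against a small stromal background in each library, and in bulk tissue fewer cells of a type and less RNA per cell cannot be told apart. Several single libraries stood far above the other 5 of their group in many chains. They were I_CKI colon day 4 replicate 1 (15 of 32 members tested for this), O_VC jejunum day 7 replicate 5 (15 of 25) and I_CKI jejunum day 4 replicate 4 (11 of 31). In the untreated irradiated colon at day 7, replicates 1 and 2 stood apart together, and values without them are given for the chains whose call against the non-irradiated colon was lost.

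After irradiation the colon showed 2 opposite movements among its collagen chains. Chains of fibrils, beaded filaments and the common basement membrane network rose, while Col11a2, Col13a1 and the basement membrane pair Col4a3 and Col4a4 fell. Of 32 members tested at day 7, 20 were higher and 6 were lower in irradiated than in non-irradiated colon (edgeR quasi-likelihood test, Benjamini-Hochberg adjusted p under 0.05 over all genes). The background was wide, since 63.6% of all genes tested were called in this comparison, 32.9% higher and 30.8% lower. At day 4, 19 were higher and 4 were lower, with 46.9% of all genes called, 24.6% higher and 22.3% lower. The median log2 fold change of the tested members was 2.54 at day 7 and 2.20 at day 4, beside 0.02 over all genes tested on either day. Every irradiated library lay above every non-irradiated one for 10 members at day 7 and 16 at day 4, and below for 5 and 3. The share of all genes so separated is not given here, so these counts have no background beside them.

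**Figure D1:**
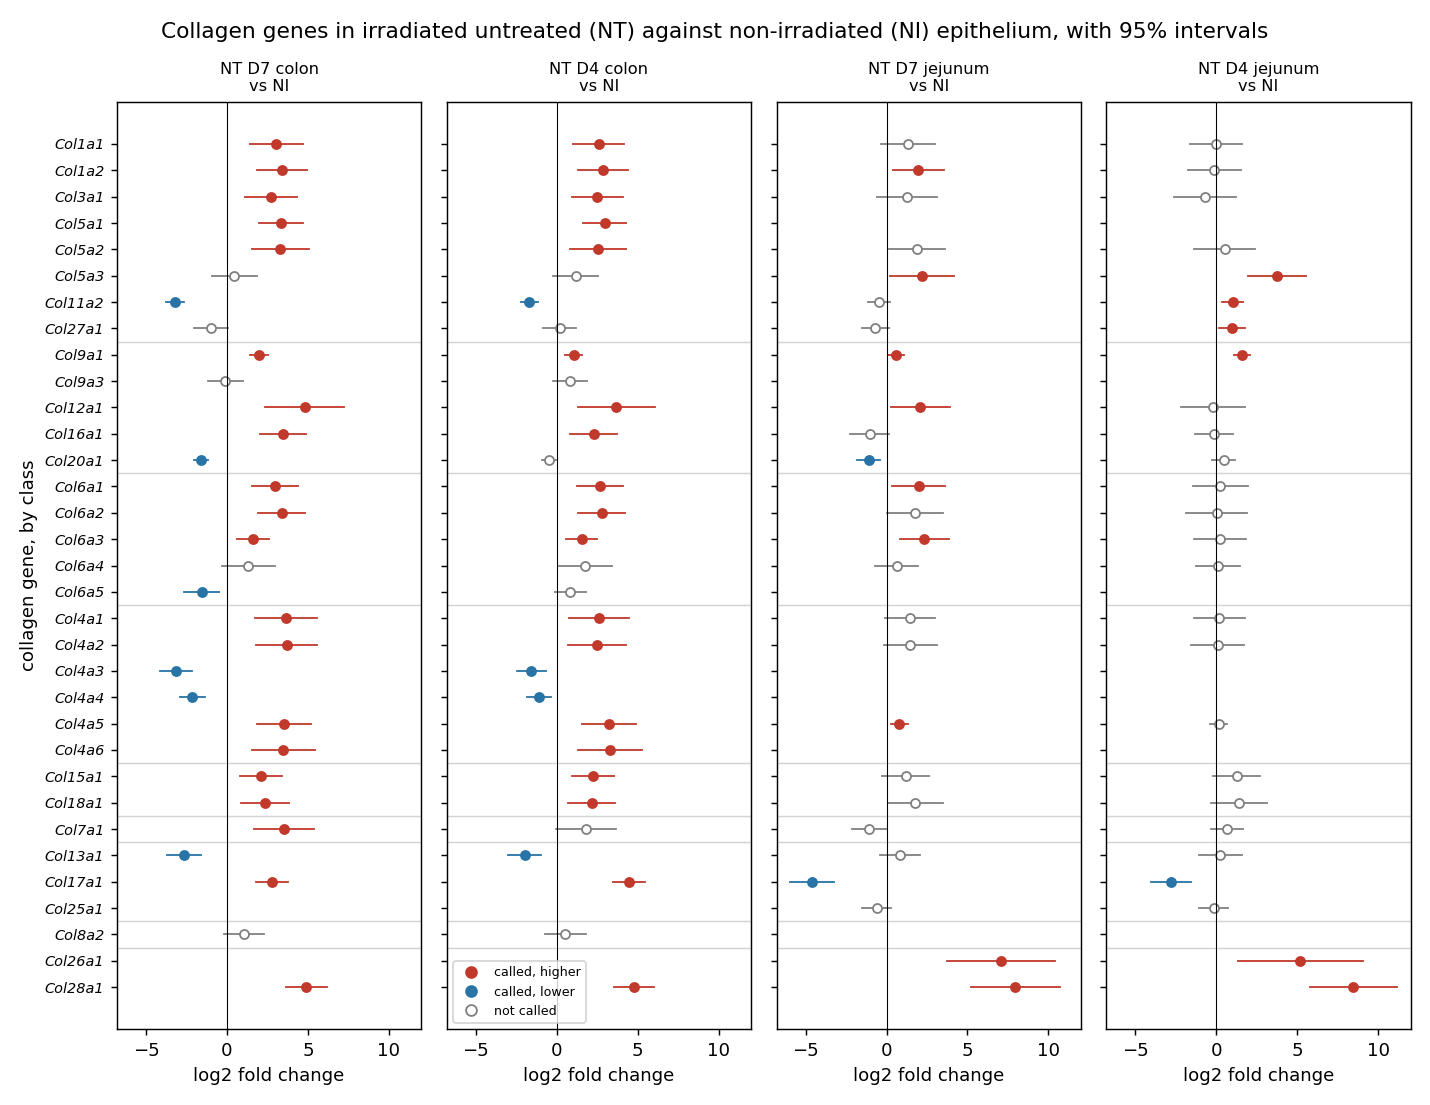
Log2 fold change of each tested chain in irradiated, untreated against non-irradiated epithelium, by chain class, with 95% confidence intervals from the edgeR fit; filled points passed adjusted p under 0.05. In colon most fibril, beaded filament and basement membrane chains lie to the right of 0 on both days, and in jejunum Col17a1 lies far to the left.

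Among fibril-forming chains the colon values were as follows. Col1a1, the alpha-1 chain of type I collagen, had a lowest, median and highest level of 2.74, 4.43 and 53.4 CPM at day 7, 4.66, 11.2 and 19.3 CPM at day 4, and 1.08, 1.94 and 2.68 CPM without irradiation. All irradiated libraries were above all non-irradiated ones, and the log2 fold change was 3.06 ± 0.802 (SE) at day 7 (adjusted p = 0.00124, edgeR) and 2.59 ± 0.783 at day 4 (adjusted p = 0.00731). Its partner Col1a2 had 2.59, 4.20 and 40.4 CPM at day 7, 3.45, 8.02 and 17.0 CPM at day 4, and 0.672, 1.16 and 1.72 CPM without irradiation. It too was separated on both days, with log2 fold changes of 3.39 and 2.87 (adjusted p = 0.000257 and 0.00228). Col3a1, the chain of type III collagen that mixes with type I in soft tissue, had 3.65, 6.97 and 76.2 CPM at day 7, 7.84, 20.6 and 33.5 CPM at day 4, and 1.70, 3.82 and 5.02 CPM without irradiation. At day 7 its lowest irradiated libraries reached into the non-irradiated range (log2 fold change 2.72, adjusted p = 0.00311), while at day 4 the groups were separate (2.51, adjusted p = 0.00878). Col1a1 overlaps the gene Sgca in the reference annotation, and whether counting used strand is not given in the sources used here.

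Type V chains, which nucleate type I fibrils, moved with them. Col5a1 had 0.956, 1.44 and 8.90 CPM at day 7, 1.44, 3.07 and 3.73 CPM at day 4, and 0.258, 0.328 and 0.439 CPM without irradiation, with no overlap on either day. Its log2 fold change was 3.33 ± 0.670 (adjusted p = 5.79e-05, edgeR) at day 7 and 2.96 ± 0.663 (adjusted p = 0.000501) at day 4. Col5a2 rose by 3.30 and 2.56 on the log2 scale; without day 7 replicates 1 and 2 its day 7 value was 1.00 (adjusted p = 0.296), and in library series 2 alone 1.32 (adjusted p = 0.406). Col5a3 and Col27a1, a long fibrillar chain best known from cartilage, did not pass the test on either day, with log2 values of 0.47 and -0.96 at day 7 and 1.19 and 0.19 at day 4. In contrast Col11a2, a type XI chain also best known from cartilage, had 2.47, 3.44 and 6.22 CPM at day 7, 6.34, 8.68 and 16.7 CPM at day 4, and 19.7, 33.8 and 45.8 CPM without irradiation. No libraries overlapped, and Col11a2 fell by 3.20 ± 0.280 on the log2 scale at day 7 (adjusted p = 3.32e-11) and by 1.70 ± 0.263 at day 4 (adjusted p = 4.38e-06). Its sister chain Col11a1 was too low for the test in the colon, with 2 counts in all 6 irradiated libraries at day 7 against 27 in the non-irradiated ones, a ratio of 15.7 in the lower direction with a 95% counting interval of 3.96 to 137.

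The promoter of Col1a2 is shown because its gene was among the chains with separated groups on both days. These are the 250 bases before its start from RefSeq on GRCr8, chr4:33518307-33518556 on the plus strand, with the TATA box TATAAA and the reverse complement of CCAAT in capitals.
Col1a2: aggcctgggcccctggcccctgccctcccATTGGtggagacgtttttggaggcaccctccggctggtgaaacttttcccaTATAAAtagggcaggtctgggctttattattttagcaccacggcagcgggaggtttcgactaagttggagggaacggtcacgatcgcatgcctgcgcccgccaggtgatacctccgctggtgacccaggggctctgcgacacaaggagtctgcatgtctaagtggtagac
A promoter was at hand for 35 of the 44 members, 28 of them among those reported. Counted on both strands, TATAAA was found in 3 of these 28, against 12.9% of 33469 windows of the same length, and CCAAT in 10, against 34.0%. The GC box GGGCGG was found in 15 of 28, against 30.5%, and TGANTCA, the letters bound by AP-1, in 1 of 28, against 6.34%. The reference differs in build from the mRatBN7.2 assembly of the counts, so its coordinates are used for these sequences alone.

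The 5 fibrillar chains Col1a1, Col1a2, Col3a1, Col5a1 and Col5a2 were also summed in each library. The sum had a lowest, median and highest level of 10.8, 18.0 and 197 CPM at day 7, 23.6, 46.4 and 77.9 CPM at day 4, and 4.03, 8.41 and 9.89 CPM without irradiation. At day 7 replicate 1, at 136 CPM, and replicate 2, at 197 CPM, were far above the other 4 libraries, which reached at most 23.8 CPM. The same 2 libraries had 21.1 and 44.4 CPM of summed fibroblast markers, against 4.08 to 6.11 CPM in the other 4. Without them 14 members instead of 26 were called at day 7, where 57.1% of all genes were called. Not all of the 14 were among the 26. Col1a1 (log2 0.82, adjusted p = 0.339), Col1a2 (1.38, adjusted p = 0.0823) and Col3a1 (0.55, adjusted p = 0.541) were no longer called, whereas Col5a1 was (1.72, adjusted p = 0.0169). The size of the fibrillar rise at day 7 therefore rests on a pair of libraries, both of series 1. In series 2 alone Col1a1 was at 1.18 (adjusted p = 0.419) and in series 1 alone at 3.79 (adjusted p = 0.000824).

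**Figure D2:**
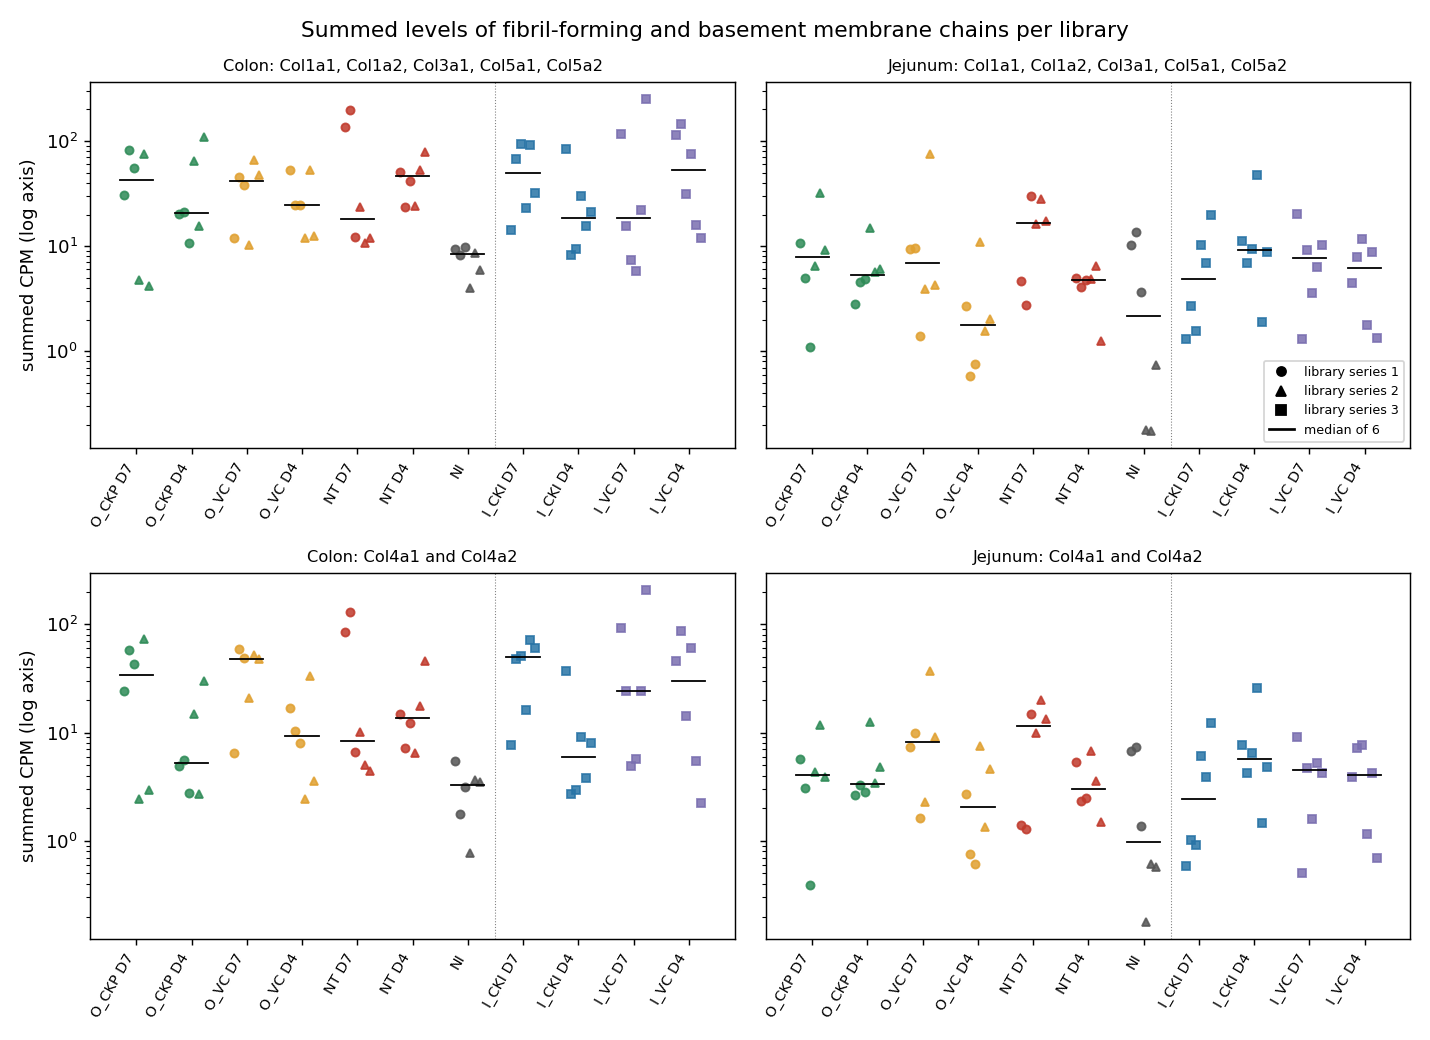
Summed CPM of Col1a1, Col1a2, Col3a1, Col5a1 and Col5a2 (upper panels) and of Col4a1 and Col4a2 (lower panels) in every library on a log axis, by group, in colon and jejunum; marker shape gives the library series and the bar the group median. In the upper panels the day 4 untreated colon libraries (23.6 to 77.9 CPM) all lie above the non-irradiated ones (4.03 to 9.89 CPM), and in the day 7 untreated colon 2 libraries, at 136 and 197 CPM, lie far above the other 4.

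Markers of other cell types moved only in part with these sums. Summed fibroblast markers had a lowest, median and highest level of 4.08, 5.38 and 44.4 CPM at day 7, 7.13, 14.3 and 19.4 CPM at day 4, and 8.47, 9.57 and 10.3 CPM without irradiation. Summed smooth muscle markers (8 genes) were 11.6, 13.4 and 36.9 CPM at day 7, 21.5, 30.2 and 69.2 CPM at day 4, and 14.2, 18.3 and 37.2 CPM without irradiation. The ratio of the 5 fibrillar chains to the fibroblast markers had a median of 3.43 at day 7, 3.33 at day 4 and 0.850 without irradiation, and its range of 2.62 to 6.47 and of 2.16 to 4.01 on the 2 days lay above the 0.476 to 0.980 of the non-irradiated colon. The markers' own part in the chain levels was not tested. The mitochondrial share of counts was 4.01 ± 0.619% at day 7, 9.43 ± 0.993% at day 4 and 12.5 ± 1.27% without irradiation (SD, n = 6 each). Day 7 and non-irradiated libraries do not overlap in it, so its part and that of irradiation cannot be told apart at day 7: with the share as a covariate 2 members were called at day 7, where 251 genes in all passed, and 11 at day 4.

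Beaded filament chains of type VI collagen, which form a fine mesh around cells and next to basement membranes, rose in colon on both days. Col6a1 had 3.83, 6.59 and 41.9 CPM at day 7, 5.92, 10.7 and 17.3 CPM at day 4, and 0.517, 2.15 and 2.58 CPM without irradiation. The groups were separate, with log2 fold changes of 2.97 ± 0.705 (adjusted p = 0.000444, edgeR) and 2.64 ± 0.701 (adjusted p = 0.00248). Col6a3 had 3.79, 5.62 and 36.8 CPM at day 7, 5.70, 12.3 and 14.6 CPM at day 4, and 2.73, 3.73 and 5.52 CPM without irradiation. Its day 7 libraries overlapped the non-irradiated ones (log2 1.61, adjusted p = 0.00472) and its day 4 libraries did not (1.53, adjusted p = 0.00941). Col6a2 rose by 3.37 and 2.78. Without the pair of high libraries Col6a2 was still called at day 7 (1.90, adjusted p = 0.0193), whereas Col6a1 (1.41, adjusted p = 0.0734) and Col6a3 (0.36, adjusted p = 0.489) were not. Col6a5 fell by 1.57 at day 7 only among the 2 days tested, and Col6a4 did not pass on either (1.32 and 1.76). Col6a4 and Col6a5 overlap Rpl29 in the annotation, so their counts are uncertain.

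Fibril-associated chains, which sit on the surface of fibrils, gave 3 calls upward on each day. Col12a1 had 0.392, 0.907 and 24.2 CPM at day 7, 0.475, 2.29 and 7.51 CPM at day 4, and 0.0517, 0.215 and 0.382 CPM without irradiation. No irradiated library overlapped the non-irradiated range, and the log2 fold change was 4.80 ± 1.21 (adjusted p = 0.000851, edgeR) at day 7 and 3.68 ± 1.18 (adjusted p = 0.0111) at day 4; without the pair of high day 7 libraries it was 1.45 (adjusted p = 0.287). Col16a1 rose by 3.46 and 2.28. Col9a1, a type IX chain, rose by 1.98 ± 0.264 (adjusted p = 8.09e-08) and 1.05 ± 0.267 (adjusted p = 0.00181), and its day 7 value was 2.01 without the pair. Col20a1 fell by 1.61 ± 0.221 at day 7 (adjusted p = 1.46e-07), with every irradiated library below every non-irradiated one, and was at -0.49 at day 4 (adjusted p = 0.0602). Col20a1 overlaps Chrna4 in the annotation, and the 2 cannot be separated without strand.

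The 6 type IV chains of the basement membrane moved in 2 directions. Col4a1, which with Col4a2 makes the network found under nearly every epithelium and vessel, had 2.56, 5.28 and 74.8 CPM at day 7, 3.75, 8.01 and 29.2 CPM at day 4, and 0.568, 1.91 and 3.26 CPM without irradiation. Col4a2 had 1.77, 3.17 and 55.5 CPM at day 7, 2.76, 5.54 and 17.0 CPM at day 4, and 0.207, 1.30 and 2.24 CPM without irradiation. Both were separate from the non-irradiated colon at day 4 and overlapped it at day 7, with log2 fold changes of 3.67 and 3.69 at day 7 (adjusted p = 0.00103 and 0.000851, edgeR) and of 2.60 and 2.49 at day 4 (adjusted p = 0.0188 and 0.0219). Without the pair of high day 7 libraries Col4a1 was at 1.03 (adjusted p = 0.299) and Col4a2 at 0.95 (adjusted p = 0.329), and without the libraries numbered 6 in all groups their day 4 values were 1.98 (adjusted p = 0.0755) and 2.08 (adjusted p = 0.0661). Col4a5 and Col4a6, chains of a network named from skin and smooth muscle, rose by 3.53 and 3.50 at day 7 and by 3.22 and 3.27 at day 4; without the pair their day 7 values were 1.77 (adjusted p = 0.0667) and 1.80 (adjusted p = 0.146). Col4a6 overlaps a protein-coding gene known only by a locus number in the annotation, so its count is uncertain.

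Col4a3 and Col4a4, chains known from the filtration barrier of the kidney, went the other way. Col4a3 had 0.0393, 0.180 and 0.521 CPM at day 7, 0.225, 0.540 and 1.44 CPM at day 4, and 1.46, 1.99 and 2.49 CPM without irradiation, with no overlap. It fell by 3.14 ± 0.483 on the log2 scale at day 7 (adjusted p = 9.66e-07, edgeR) and by 1.57 ± 0.440 at day 4 (adjusted p = 0.00407). Col4a4 had 0.906, 1.18 and 3.32 CPM at day 7, 0.945, 3.27 and 5.13 CPM at day 4, and 4.13, 6.92 and 8.94 CPM without irradiation. It fell by 2.13 ± 0.386 (adjusted p = 1.34e-05) with separate groups at day 7, and by 1.10 ± 0.372 (adjusted p = 0.0152) with overlap at day 4. Without the pair of high libraries the day 7 values were -3.31 and -2.47 and both were called. The ratio of summed Col4a1 and Col4a2 to summed Col4a3 and Col4a4 had a median of 5.27 at day 7 (4.12 to 61.6), 3.14 at day 4 (1.61 to 39.5) and 0.358 without irradiation (0.130 to 0.785), so no untreated irradiated library reached the non-irradiated range. In the other arms day 4 colon libraries did reach it, with lowest ratios of 0.282 under powder, 0.654 under oral vehicle, 0.58 under injection and 0.557 under injected vehicle. Their day 7 libraries did not, with a lowest ratio of 1.32, under powder.

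**Figure D3:**
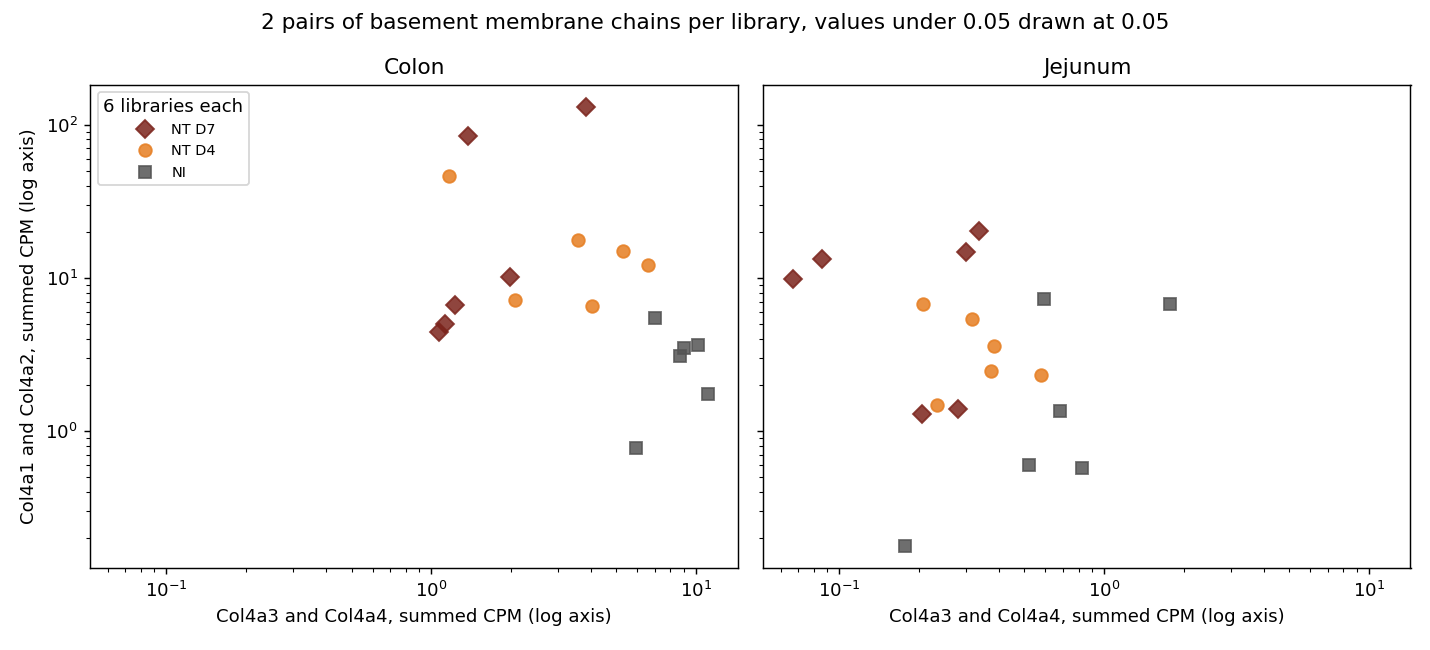
Summed CPM of Col4a1 and Col4a2 (vertical, log) against summed CPM of Col4a3 and Col4a4 (horizontal, log) in each library; values under 0.05 CPM are drawn at 0.05. By its medians, irradiated, untreated colon (8.39 and 1.30 CPM at day 7) lies to the left of and above the non-irradiated colon (3.31 and 8.84 CPM). Col4a1 and Col4a2 each overlapped the non-irradiated colon at day 7.

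The type IV genes lie head to head in pairs, and the sequence between the starts of a pair is shown because the members of each pair moved in one direction. In RefSeq on GRCr8, 76 bases separate the starts of Col4a1 and Col4a2, and 412 those of Col4a3 and Col4a4. The first segment is chr16:84885521-84885596, given on the plus strand, and the windows before the starts of Col4a3 (chr9:91323740-91323989, plus strand) and Col4a4 (chr9:91323578-91323827, minus strand) share bases. Capitals mark the GC box GGGCGG or its reverse complement.
Col4a1 and Col4a2: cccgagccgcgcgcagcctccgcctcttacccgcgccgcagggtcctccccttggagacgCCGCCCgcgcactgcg
Col4a3: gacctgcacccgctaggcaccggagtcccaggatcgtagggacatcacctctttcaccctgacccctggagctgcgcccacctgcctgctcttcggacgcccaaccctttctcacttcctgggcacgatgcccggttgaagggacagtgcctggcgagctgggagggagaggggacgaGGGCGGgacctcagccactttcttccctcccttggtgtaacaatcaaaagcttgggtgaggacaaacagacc
Col4a4: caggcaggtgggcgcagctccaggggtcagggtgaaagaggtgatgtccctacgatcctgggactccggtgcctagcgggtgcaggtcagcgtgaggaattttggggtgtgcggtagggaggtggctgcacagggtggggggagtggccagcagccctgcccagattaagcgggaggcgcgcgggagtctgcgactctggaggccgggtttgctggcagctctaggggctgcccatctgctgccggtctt
The ratio within each pair was taken library by library. Col4a1 to Col4a2 had a median ratio of counts of 1.47 at day 7 (1.05 to 1.89), 1.44 at day 4 (1.32 to 1.72) and 1.35 without irradiation (1.12 to 2.75). Col4a4 to Col4a3 had a median of 6.51 at day 7 (5.25 to 34.0), 4.58 at day 4 (3.58 to 8.44) and 3.44 without irradiation (2.29 to 4.80), so the day 7 and non-irradiated ranges were apart.

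The multiplexins Col15a1 and Col18a1, basement membrane collagens that carry sugar chains, rose in colon on both days. Col18a1 had 4.95, 7.59 and 85.5 CPM at day 7, 7.40, 15.5 and 55.4 CPM at day 4, and 1.70, 5.18 and 7.38 CPM without irradiation. It was separate from the non-irradiated colon at day 4 (log2 2.17 ± 0.719, adjusted p = 0.0133, edgeR) and not at day 7 (2.36 ± 0.725, adjusted p = 0.00509). Its day 7 call did not hold in other fits: the value was 0.24 (adjusted p = 0.767) without the pair of high libraries and -0.48 (adjusted p = 0.903) with the mitochondrial share as a covariate. Col15a1 rose by 2.10 and 2.23, and by 0.81 (adjusted p = 0.287) at day 7 without the pair.

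Chains that anchor epithelium to its bed gave a mixed result. Col7a1, the chain of the anchoring fibrils under skin, had 0.206, 0.429 and 7.26 CPM at day 7, 0.148, 0.332 and 2.29 CPM at day 4, and 0.0956, 0.147 and 0.383 CPM without irradiation. It overlapped the non-irradiated range on both days and was called at day 7 (log2 3.52 ± 0.910, adjusted p = 0.00109, edgeR), and without the pair of high libraries was 0.70 (adjusted p = 0.486), and was at 1.81 at day 4 (adjusted p = 0.0975). Col17a1 had 0.511, 0.778 and 1.15 CPM at day 7, 1.62, 2.16 and 5.27 CPM at day 4, and 0, 0.0961 and 0.287 CPM without irradiation. All irradiated libraries lay above all non-irradiated ones, and Col17a1 rose by 2.80 ± 0.487 (adjusted p = 7.16e-06) at day 7 and by 4.46 ± 0.483 (adjusted p = 7.89e-09) at day 4. It was still called at day 7 without the pair of high libraries (adjusted p = 5.38e-05). Col13a1, another transmembrane chain, fell by 2.65 ± 0.512 (adjusted p = 3.42e-05) and 1.99 ± 0.496 (adjusted p = 0.00148), with no overlap.

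Col28a1, a chain with von Willebrand domains best known from peripheral nerve, had 5.29, 9.52 and 13.0 CPM at day 7, 2.92, 6.70 and 25.4 CPM at day 4, and 0, 0.316 and 0.621 CPM without irradiation. The groups did not overlap, and it rose by 4.91 ± 0.615 (adjusted p = 2.52e-08, edgeR) and 4.77 ± 0.616 (adjusted p = 2.08e-07). It was called in each library series alone on both days, with values of 4.75 and 5.07 at day 7 and 3.89 and 5.60 at day 4, and was 5.01 at day 7 without the pair of high libraries. Enteric glia markers, the nearest list to the cells it is known from, had a summed median of 1.49 CPM at day 7, 1.93 CPM at day 4 and 2.46 CPM without irradiation. Over all members, series 1 alone gave 26 calls at day 7 and 11 at day 4, and series 2 alone 13 and 14. The share of all genes called in these single-series fits is not given here.

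In jejunum members were called in both directions on each day after irradiation. At day 7, 9 of 26 members tested were higher and 2 lower than in non-irradiated jejunum, where 58.8% of all genes were called. At day 4, 6 were higher and 1 lower, where 44.0% of all genes were called. The members' share of calls was thus below the background on both days. The median log2 fold change of the tested members was 1.29 at day 7 and 0.23 at day 4, beside 0.02 and 0.05 over all genes. The mitochondrial share was 5.52 ± 1.92% at day 7, 13.5 ± 5.91% at day 4 and 12.9 ± 7.17% without irradiation (SD, n = 6 each).

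The largest fitted jejunal rises, among the 26 members, were in chains that the non-irradiated jejunum did not show at all. Col28a1 had 0.422, 1.66 and 4.40 CPM at day 7 and 0.289, 2.15 and 6.44 CPM at day 4, while all 6 non-irradiated libraries held no count. Against a floor of 3 counts over that group it was at least 52.6-fold higher at day 7 and at least 71.2-fold higher at day 4 (adjusted p = 1.38e-05 and 1.10e-05, edgeR). Col26a1, a chain of a small family with little known of it in gut, had 0.423, 0.667 and 1.60 CPM at day 7 and 0, 0.165 and 0.821 CPM at day 4, again against no count. It was at least 22.5-fold higher at day 7 (adjusted p = 0.000562) and at least 7.53-fold higher at day 4 (adjusted p = 0.0267), and the day 4 call was lost in each library series alone. The highest group mean of Col26a1, 0.912 CPM, was that of untreated irradiated jejunum at day 7, so its inclusion and its rise are not independent. Col5a3 rested on 2 counts in the non-irradiated group: its ratio was 5.86 at day 7 (95% counting interval 1.39 to 52.3) and 19.3 at day 4 (5.01 to 165). The day 7 call of Col5a3 was marginal (adjusted p = 0.0494, edgeR) and was lost in each library series alone (adjusted p = 0.284 and 0.0874). Its day 4 call was lost in series 1 alone (log2 1.34, adjusted p = 0.566).

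Of Col12a1, Col6a1, Col6a2, Col6a3 and the 5 summed fibrillar chains, 4 passed in the jejunum at day 7 and 0 at day 4; Col5a1 was too low for the test there. Col1a2 had 0.206, 3.48 and 4.96 CPM at day 7, 0.0782, 0.743 and 1.03 CPM at day 4, and 0, 0.460 and 1.55 CPM without irradiation. The groups overlapped, with a log2 fold change of 1.97 ± 0.771 (adjusted p = 0.0279, edgeR) at day 7 and -0.12 (adjusted p = 0.915) at day 4. Col6a1 rose by 1.98, Col6a3 by 2.33 and Col12a1 by 2.09 at day 7. Col1a1 (0.669, 2.85 and 5.54 CPM at day 7 against 0, 0.302 and 2.67 CPM) did not pass, at 1.32 (adjusted p = 0.161), and neither did Col3a1 (1.55, 8.88 and 17.2 CPM against 0, 1.35 and 8.16 CPM), at 1.26 (adjusted p = 0.236). Col4a1 and Col4a2 were both at 1.47 (adjusted p = 0.0936 and 0.109). The 4 calls rested on library series 2: series 1 alone gave log2 values of 0.75 for Col1a2, 0.99 for Col6a1, 1.39 for Col6a3 and 0.64 for Col12a1, none called. Summed fibroblast markers were 2.21, 4.15 and 7.97 CPM at day 7, 1.45, 1.91 and 2.83 CPM at day 4, and 0.977, 2.07 and 3.64 CPM without irradiation, and their part was not tested.

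The type IX and XI chains and a few others were also called in jejunum. Col9a1 had 1.29, 2.01 and 2.73 CPM at day 7, 2.85, 3.93 and 4.74 CPM at day 4, and 1.07, 1.27 and 1.63 CPM without irradiation. Its day 4 libraries were separate (log2 1.57 ± 0.243, adjusted p = 6.14e-06, edgeR) and its day 7 libraries were not (0.56, adjusted p = 0.0464). That day 7 call was lost under most alternatives, with adjusted p = 0.0620 by DESeq2 and 0.0556 with the replicate block, and series 1 alone gave 0.22 (adjusted p = 0.673). Col11a2, which fell in colon, rose by 1.02 ± 0.322 in jejunum at day 4 (adjusted p = 0.0104) and was at -0.48 at day 7 (adjusted p = 0.206). The Col11a2 call was lost without the libraries numbered 5 (0.81, adjusted p = 0.0766) and in series 2 alone (0.79, adjusted p = 0.0820). Col27a1 was called at 0.98 at day 4 (adjusted p = 0.0400), a call lost with the replicate block (0.92, adjusted p = 0.0511) and without the libraries numbered 5 (0.55, adjusted p = 0.275); series 1 alone gave 0.07 (adjusted p = 0.927) and series 2 alone 1.81 (adjusted p = 0.0160). Col4a5 rose by 0.78 at day 7, with adjusted p = 0.121 and 0.0853 in series 1 and series 2 alone and 0.0687 without the libraries numbered 4. Col20a1 fell by 1.12 at day 7, with adjusted p = 0.0695 in series 1 alone.

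Col17a1 gave the largest fall of any tested member in the jejunum. It had 0.648, 4.24 and 8.22 CPM at day 7, 4.27, 6.78 and 35.6 CPM at day 4, and 66.6, 85.2 and 96.8 CPM without irradiation. No library of these irradiated groups reached the non-irradiated range, and Col17a1 fell by 4.60 ± 0.660 (adjusted p = 8.40e-07, edgeR) at day 7 and by 2.79 ± 0.608 (adjusted p = 0.000443) at day 4. The day 7 fall was called under every alternative run, between -5.28 and -3.90, and the day 4 fall was lost in series 1 alone (-1.84, adjusted p = 0.0936). Its promoter from RefSeq is shown because the same gene rose in colon: chr1:256518858-256519107 of GRCr8, minus strand, with 2 matches to TATAAA and the reverse complement of CCAAT in capitals.
Col17a1: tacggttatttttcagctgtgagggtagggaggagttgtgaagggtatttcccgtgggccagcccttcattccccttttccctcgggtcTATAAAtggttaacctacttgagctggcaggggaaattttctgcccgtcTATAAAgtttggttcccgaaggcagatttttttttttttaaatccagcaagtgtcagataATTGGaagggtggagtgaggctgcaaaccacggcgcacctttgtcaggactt

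**Figure D4:**
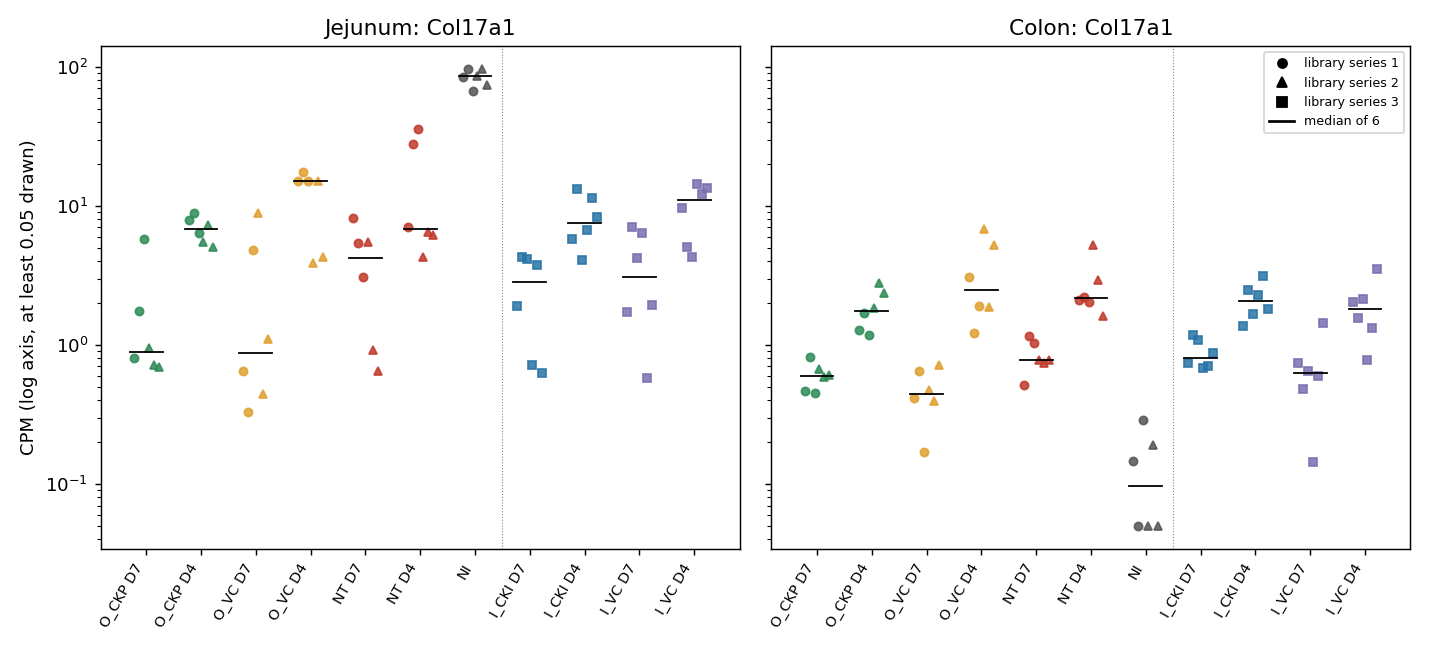
CPM of Col17a1 in every library by group, jejunum left and colon right; marker shape gives the library series and the bar the group median. Every irradiated jejunum library lies below the non-irradiated ones (66.6 to 96.8 CPM), and the untreated irradiated colon (0.511 to 5.27 CPM) lies above the non-irradiated colon (0 to 0.287 CPM).

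Without irradiation the 2 tissues already differed. Of 34 members tested, 6 were higher and 11 lower in jejunum than in colon, where 71.5% of all genes were called. Col17a1 had 66.6, 85.2 and 96.8 CPM in jejunum and 0, 0.0961 and 0.287 CPM in colon, with no overlap (log2 9.41 ± 0.772, adjusted p = 8.42e-18, edgeR). Col7a1 had 1.11, 2.82 and 4.70 CPM in jejunum and 0.0956, 0.147 and 0.383 CPM in colon, with no overlap (3.84 ± 0.772, adjusted p = 1.10e-05). Col4a5 averaged 2.64 CPM in jejunum and 0.120 CPM in colon (4.31, adjusted p = 9.94e-09). Lower in jejunum were the pair Col4a4 (mean 0.610 CPM against 6.69 CPM in colon) and Col4a3 (0.151 CPM against 1.96 CPM), Col11a2 (3.74 CPM against 34.1 CPM), Col13a1 and Col6a3. Col28a1 had no count in jejunum and was at least 7.56-fold lower there than in colon. The 5 summed fibrillar chains overlapped, at 0.173, 2.18 and 13.6 CPM in jejunum and 4.03, 8.41 and 9.89 CPM in colon, and none of these chains was called, with log2 values between -1.04 and -0.45.

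The difference between tissues in the response to irradiation was tested directly. At day 7, 2 members of 34 had a more positive change in jejunum than in colon and 5 a more negative one, where 39.4% of all genes were called; at day 4 it was 2 and 3, where 21.5% were called. Col17a1 differed most, with a jejunum minus colon difference in log2 fold change of -7.21 ± 0.931 at day 7 (adjusted p = 5.91e-09, edgeR) and -7.14 ± 0.903 at day 4 (adjusted p = 1.13e-08). Col11a2 differed in the other sense, by 2.71 ± 0.429 (adjusted p = 7.94e-07) and 2.73 ± 0.421 (adjusted p = 1.57e-06). Col4a5 changed less in jejunum, by -2.65 at day 7 and -3.03 at day 4, and Col13a1 was at 3.60 and 2.32. Col7a1 (-4.47), Col16a1 (-4.41) and Col9a1 (-1.31) differed at day 7, and Col5a1 (-3.93) at day 4. In series 1 alone Col5a1, Col4a5 and Col13a1 were not called at day 4 (adjusted p = 0.0833, 0.150 and 0.258), nor was Col13a1 at day 7 (0.0553). In series 2 alone Col5a1 and Col13a1 were not called at day 4 (0.647 and 0.0885), nor were Col16a1, Col4a5 and Col9a1 at day 7 (0.152, 0.155 and 0.0848). Without the pair of high colon libraries the day 7 values of Col7a1 (-1.73, adjusted p = 0.165) and Col4a5 (-1.10, adjusted p = 0.265) were no longer called. For Col1a1, Col1a2 and Col3a1 the tissue difference did not pass, at -1.56, -1.30 and -1.22 at day 7 (adjusted p = 0.279, 0.347 and 0.442) and -2.31, -2.80 and -2.84 at day 4 (adjusted p = 0.147, 0.0637 and 0.0898).

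Between the days, the same small set of chains was lower at day 7 than at day 4 in each irradiated arm, taken over the 5 arms of each tissue (untreated, both vehicles, powder and injection). In colon Col11a2, Col20a1 and Col17a1 fell in all 5 arms. The counts of members higher and lower at day 7 in colon were 1 and 7 under powder (49.3% of all genes called), 0 and 4 under oral vehicle (27.4%), 1 and 3 under injection (40.8%), 0 and 3 under injected vehicle (27.4%) and 1 and 6 in untreated rats (36.5%). Col17a1 fell by 1.59 under powder, 2.76 under oral vehicle, 1.28 under injection, 1.49 under injected vehicle and 1.67 in untreated rats. Col20a1 fell by 1.51, 1.34, 1.37, 1.02 and 1.12 in the same order of arms. Col6a5 fell in the powder (-3.54), oral vehicle (-1.73) and untreated (-2.40) arms. Col4a3 and Col4a4 were lower at day 7 under powder (-2.94 and -1.83) and in untreated rats (-1.58 and -1.03). No fibrillar chain of the 5 was called between days in any colon arm. Without untreated day 7 replicates 1 and 2, however, 15 instead of 7 members were called in untreated colon, 1 higher and 14 lower. Likewise, without injected vehicle day 7 replicates 1 and 6, whose fibrillar sums of 117 and 251 CPM stood above 22.0 CPM or less in the other 4, 12 instead of 3 were called, 1 higher and 11 lower. The share of all genes called in these reduced fits is not given here, so the added calls have no background beside them.

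In jejunum Col7a1, Col27a1, Col17a1, Col20a1 and Col11a2 were lower at day 7 than at day 4 in all 5 arms. The counts higher and lower were 1 and 9 under powder (36.9% of all genes called), 7 and 7 under oral vehicle (25.7%), 0 and 10 under injection (41.0%), 0 and 7 under injected vehicle (50.6%) and 4 and 6 in untreated rats (41.0%). Col7a1 had 0.352, 0.546 and 0.967 CPM at day 7 and 1.70, 3.64 and 6.20 CPM at day 4 under powder, with no overlap (log2 -2.71 ± 0.544, adjusted p = 0.000290, edgeR). It fell by 2.13 under oral vehicle, 3.14 under injection, 3.55 under injected vehicle and 1.74 in untreated rats. Col27a1 fell by 2.95, 1.75, 3.32, 2.68 and 1.66 in the order powder, oral vehicle, injection, injected vehicle and untreated. Several chains rose between the days under oral vehicle, among them Col1a2 (2.93), Col3a1 (2.63), Col6a1 (2.51) and Col4a1 (2.11). Without the libraries numbered 5 the values of Col1a2, Col3a1, Col6a1 and Col4a1 were 1.65, 0.76, 0.93 and 1.24, and none was called. The day 7 library of that number had a fibrillar sum of 75.8 CPM, against at most 9.71 CPM in the others. In untreated jejunum Col1a2 (2.09), Col6a3 (2.11), Col12a1 (2.30) and Col4a5 (0.65) rose between days. No member passed in series 1 alone in untreated jejunum.

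Under powder the colon at day 4 was the only one of the 4 powder comparisons with collagen calls. Of 32 members, 2 were higher and 1 lower than under oral vehicle, where 11.8% of all genes were called, 4.89% higher and 6.90% lower, so the members' share was close to the background. Col6a5 had 0.425, 1.44 and 3.63 CPM under powder and 0.242, 0.450 and 0.953 CPM under vehicle (log2 1.78 ± 0.469, adjusted p = 0.0131, edgeR). Col13a1 had 0.295, 1.21 and 1.82 CPM under powder and 0, 0.379 and 0.924 CPM under vehicle (1.54 ± 0.503, adjusted p = 0.0401). Col28a1 had 0.566, 2.13 and 6.67 CPM under powder and 1.95, 7.10 and 15.5 CPM under vehicle (-1.52 ± 0.494, adjusted p = 0.0392). All 3 pairs of groups overlapped. None of the 3 was called in either library series alone: Col6a5 was at 0.59 in series 1 and 2.64 in series 2, Col13a1 at 0.91 and 2.50, and Col28a1 at -1.88 and -1.32. Leaving out the libraries numbered 4, or those numbered 6, left no call.

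**Figure D5:**
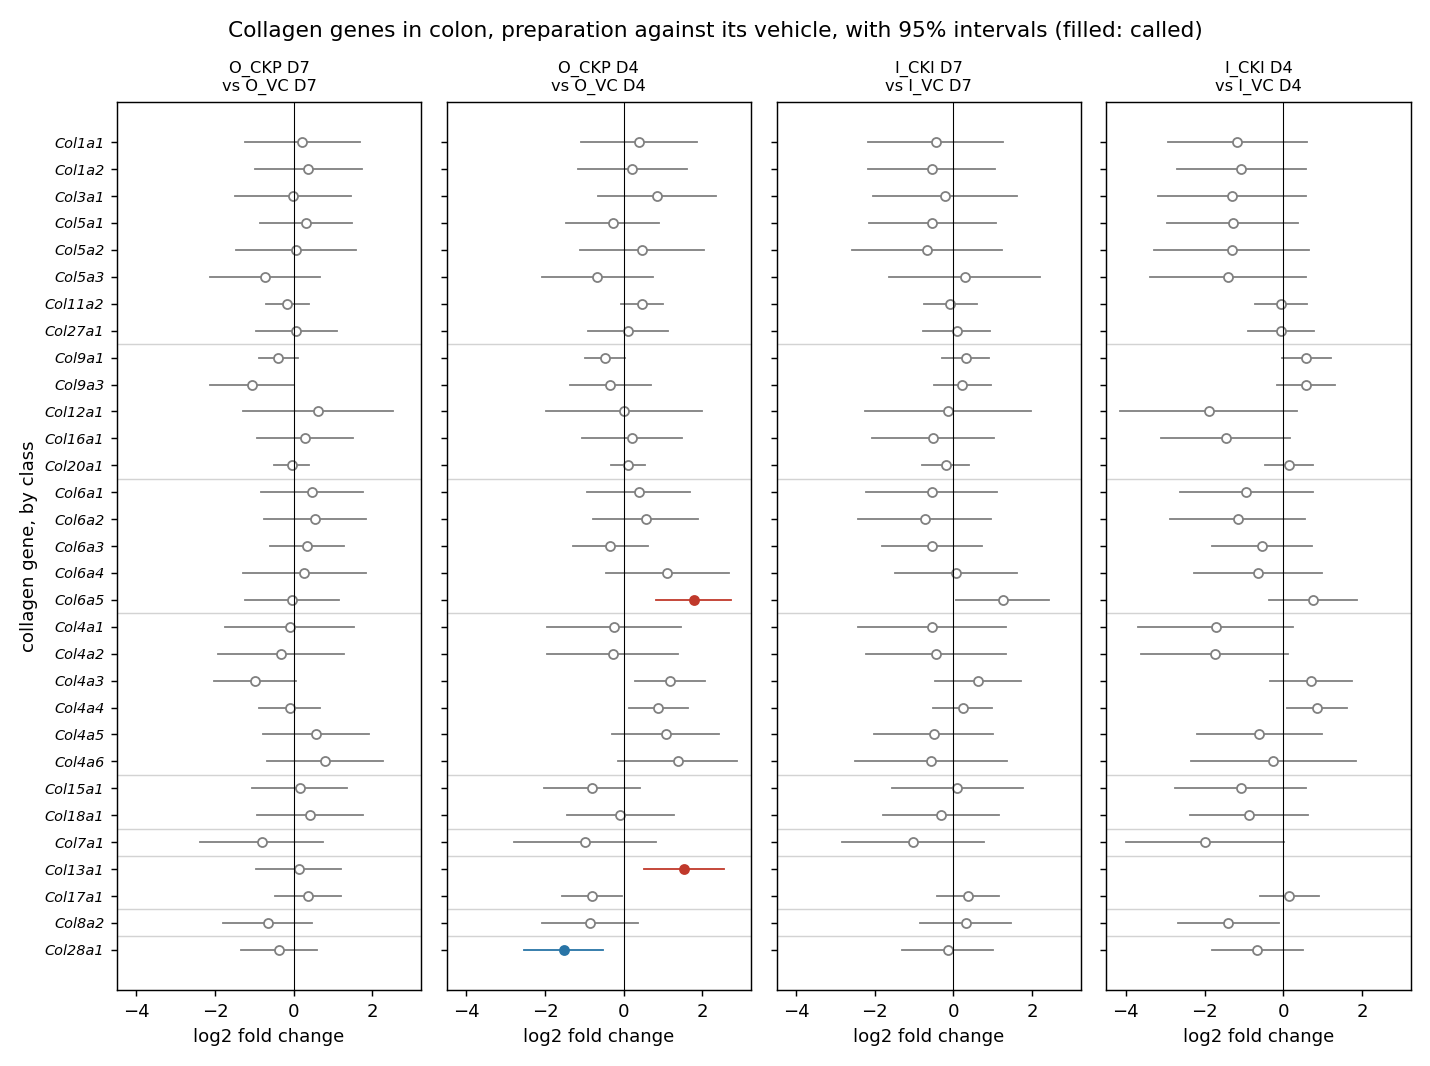
Log2 fold change with 95% confidence interval of each tested chain in colon under powder against oral vehicle and under injection against injected vehicle, by class; filled points passed adjusted p under 0.05. Col6a5, Col13a1 and Col28a1 under powder at day 4 are the filled points, and most intervals span 0.

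Col4a3 and Col4a4 under powder at day 4 did not pass (log2 1.18, adjusted p = 0.0724, and 0.88, adjusted p = 0.110). In the other powder comparisons no member was called; at an unadjusted p under 0.05 there were 0 in colon at day 7, 0 in jejunum at day 7 and 3 in jejunum at day 4 (Col1a2, Col5a3 and Col6a4), and DESeq2 also called none. Of all genes, edgeR called 0% in colon at day 7 and 0.00800% in jejunum on either day. The 5 summed fibrillar chains overlapped throughout: in colon they were 4.17, 42.7 and 82.2 CPM under powder and 10.3, 41.7 and 66.5 CPM under vehicle at day 7, and 10.6, 20.7 and 108 CPM and 11.9, 24.5 and 53.3 CPM at day 4.

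Injection changed no member detectably. None was called in the 4 comparisons with injected vehicle by edgeR; 1 had an unadjusted p under 0.05 in colon at day 7 (Col6a5), 2 in colon at day 4 (Col8a2 and Col4a4), 0 in jejunum at day 7 and 2 in jejunum at day 4 (Col1a2 at 1.60 and Col5a3 at 1.65, adjusted p = 0.580 for both). By edgeR no gene at all passed in these comparisons, 0% of those tested. DESeq2 called none in 3 of them, and for jejunum at day 4 it gave the members no adjusted p. Confidence intervals were wide, with a median half-width of 1.54 log2 units in colon at day 7 and 1.62 in colon at day 4. In jejunum it was 1.38 at day 7 and 1.42 at day 4. These intervals are not adjusted for the number of genes tested. Changes of this size and somewhat larger could therefore also go uncalled, as those of Col1a2 and Col5a3 in jejunum at day 4 did. The fibrillar sum in colon was 14.3, 49.4 and 94.0 CPM under injection and 5.77, 18.7 and 251 CPM under vehicle at day 7, and 8.24, 18.3 and 83.9 CPM and 12.1, 53.0 and 146 CPM at day 4. In the injected colon at day 4, replicate 1 held the 83.9 CPM together with 217 CPM of smooth muscle markers, against 14.9 to 53.9 CPM in the other 5; the part of these cells was not tested.

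Oral vehicle was also set against no treatment, since both arms were irradiated. No member was called in any of the 4 comparisons by edgeR or DESeq2; at an unadjusted p under 0.05 there were 1 in colon at day 7 (Col17a1, log2 -0.83), 1 in colon at day 4 (Col9a2), 2 in jejunum at day 7 (Col25a1 and Col26a1) and 1 in jejunum at day 4 (Col9a1, -0.58). Among all genes 0.00752% were called in colon at day 7, 0.00800% in jejunum at day 7 and 0% on day 4 in either tissue. Each of the Col17a1 levels in irradiated jejunum was low: the medians at day 7 were 0.884 CPM under powder, 0.870 CPM under oral vehicle and 4.24 CPM untreated, and at day 4 they were 6.84, 15.1 and 6.78 CPM.

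Genes that work with collagens in colon are given from pathway lists chosen with earlier results of these data known. Of 14 basement membrane partners tested, 10 were higher at day 7 and 9 at day 4 than without irradiation, and none was lower. Lama5, the laminin chain of mature gut basement membrane, averaged 74.1 CPM at day 7, 69.2 CPM at day 4 and 3.12 CPM without irradiation (log2 4.62 and 4.40). Nid2, a nidogen that links laminin to type IV collagen, rose by 5.35 and 3.77. Of 9 fibril partners, 7 were higher and 1 lower at day 7, and 8 were higher at day 4; Fn1 (fibronectin) rose by 5.09 and 3.48 and Tnc (tenascin C) by 6.26 and 4.21, while Thbs1 fell by 1.58 at day 7. Of 7 cleavage and crosslinking genes, 4 and 5 were higher, among them the lysyl oxidase relatives Loxl4 (3.04 and 3.12) and Loxl2 (2.76 and 2.28). Of 8 degradation genes, 6 and 5 were higher, with the protease Mmp2 at 3.93 and 3.86 and the inhibitor Timp1 at 2.53 and 3.15.

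Of 7 collagen receptors 4 rose on each day, including the integrin chains Itga11 (5.27 and 3.91) and Itga2 (1.33 and 1.44). Of 5 hemidesmosome partners, which bind Col17a1 in the cell membrane, 3 were higher and 1 lower at day 7 and 4 were higher at day 4; Itga6 rose by 1.80 and 1.91. Modification and folding genes were mixed, with 4 higher and 4 lower of 17 at day 7 and 6 higher and 1 lower at day 4; the prolyl hydroxylase P3h1 fell by 1.52 and 0.57. Of 13 TGF-beta pathway genes, 6 were higher and 1 lower at day 7 and 7 higher and 1 lower at day 4, with Ccn2 at 5.69 and 5.41 and the inhibitor Smad7 falling by 1.18 and 0.91. The day 7 counts stand beside 63.6% and the day 4 counts beside 46.9% of all genes called.

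Without day 7 replicates 1 and 2 fewer partner genes were called at day 7 in several lists, where 57.1% of all genes were called. The counts higher and lower were 5 and 1 of 14 basement membrane partners, 3 and 1 of 10 fibril partners, 1 and 1 of 7 cleavage and crosslinking genes, 4 and 1 of 9 degradation genes, 3 and 0 of 7 receptors, 3 and 1 of 5 hemidesmosome partners, 5 and 3 of 17 modification and folding genes, and 1 and 3 of 13 TGF-beta pathway genes. Loxl2 (0.97, adjusted p = 0.216) and Ccn2 (0.92, adjusted p = 0.639) were no longer called. Lama5 (3.72), Nid2 (3.57), Fn1 (2.41), Tnc (2.90, adjusted p = 0.0467), Loxl4 (1.98) and Mmp2 (1.99) still rose.

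In jejunum the same lists held calls in both directions, beside 58.8% of all genes called at day 7 and 44.0% at day 4. Of 12 basement membrane partners 5 were higher and 2 lower at day 7 and 6 higher at day 4; Lama5 rose by 4.54 and 6.11, while Nid2 fell by 1.20 at day 7. Of 9 fibril partners 2 were higher and 2 lower at day 7 and none passed at day 4. Of 5 hemidesmosome partners 2 were lower at day 7 (Cd151 and Plec) and 1 was higher at day 4 (Itga6, 0.83). Of 6 degradation genes 4 were higher and 1 lower at day 7 and 3 higher and 1 lower at day 4, with Mmp9 falling by 4.69 and 1.82. The remaining counts of higher and lower at day 7 and day 4 were 2 and 1, then 2 and 0, of 5 cleavage and crosslinking genes; 1 and 2, then 1 and 1, of 4 receptors; 5 and 6, then 3 and 3, of 15 modification and folding genes; and 4 and 5, then 3 and 2, of 12 TGF-beta pathway genes.

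Under powder at day 4 in colon 4.89% of all genes were higher and 6.90% lower than under vehicle, and the list genes called are given beside that. All 3 calls among 5 hemidesmosome partners were lower than under vehicle (Itga6 at -0.88, Itgb4 at -1.06 and Plec at -0.92), as were all 3 among 7 receptors (Itga2 at -1.58, Itga1 at -1.73 and Ddr1 at -0.29). Among basement membrane partners Agrn was lower (-0.72), as were, of 8 degradation genes, 2 (Ctsl at -2.29 and Timp1 at -0.94) and, of 13 TGF-beta genes, 2 (Smad3 and Smad4). Of 17 modification and folding genes 3 were higher, among them Tmem38b at 0.50. No fibril partner or crosslinking gene passed. Col17a1, which binds the hemidesmosome partners, had 1.18, 1.77 and 2.79 CPM under powder and 1.23, 2.49 and 6.80 CPM under vehicle, and did not pass (-0.80, adjusted p = 0.146).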

How the data were processed

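RNA from colon and jejunum epithelium of irradiated and non-irradiated rats was sequenced by the authors as paired-end reads. Reads were aligned with STAR 2.7.10a to mRatBN7.2, per the submitters' processing notes; for the counter, the annotation and any use of strand, the sources used here give nothing. The authors deposited raw counts per gene symbol for 21837 genes in 2 tables, with 168 library columns; 36 libraries stood in both with identical counts and were used once.

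Counts were normalised by TMM and tested with edgeR 4.0.16 (quasi-likelihood F test, R 4.3.3) after filtering with filterByExpr (minimum count 10, total 15). Fits held all oral, untreated and non-irradiated libraries of a tissue with a library series term, all injected libraries of a tissue, or, for tissue comparisons, the untreated and oral libraries of both tissues. P-values were adjusted by Benjamini-Hochberg over all genes tested and called under 0.05. Levels are CPM, counts scaled to library size with TMM factors over all libraries. Figures were drawn with matplotlib 3.10.9. Only the fit of oral, untreated and non-irradiated colon libraries was tested on simulated data, for untreated colon at day 7 against non-irradiated colon.

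The labels describe each library as a biological replicate but do not name animals, so p-values measure the spread between these libraries. Depth was 17.2 to 19.8 M counts. Counting intervals (95%) and floors of 3 counts cover counting error only. Between groups of one tissue, no comparison had every same-numbered pair of libraries correlated over 0.1 in its deviations, so numbers were not taken as pairs.

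The members and lists were chosen with earlier results of these data known. Any member of at least 0.5 CPM could be named. Values by library were given for 12 preset chains and for every chain called under a preparation, and of lists at most the 4 called genes with the smallest p on a day; such a gene's value on the other day, a few other chains that stood apart and the ratios were chosen after their values were seen. Alternatives tried were RLE size factors, no low count filter, DESeq2 1.42.0, each replicate number left out, a replicate block, only the 2 groups compared, each library series alone and the mitochondrial share as covariate. Leaving out 2 pairs of high libraries was added after seeing the data, for the lists in NT colon at day 7 too. One result of a gene list is not reported here.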

Additional observations from a re-analysis of the deposited data

Results flagged for a closer look

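Single libraries far from the other 5 of their group were looked for in 165 combinations of a chain or chain sum with a group, and 31 were found by the Dixon criterion. Chance gives about 1 in 20 for normally distributed values. CPM were not shown to be normal and the combinations share libraries, so an excess over chance cannot be read from these counts. Among single members, 104 of 621 combinations stood apart.

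In O_VC jejunum at day 7, replicate 5 held 75.8 CPM of the 5 fibrillar chains, against 1.39 to 9.71 CPM in the others, 37.0 CPM of Col4a1 and Col4a2, 54.8 CPM of Col6a1, Col6a2 and Col6a3, and 7.25 CPM of Col12a1. Its fibroblast markers summed to 13.7 CPM, against 0.665 to 3.22 CPM in the others. In I_CKI colon at day 4, replicate 1 held 83.9 CPM of the fibrillar chains, against 8.24 to 30.3 CPM, 36.9 CPM of Col4a1 and Col4a2, 5.09 CPM of Col12a1 and 35.7 CPM of Col18a1. In I_CKI jejunum at day 4, replicate 4 held 47.8 CPM of the fibrillar chains, against 1.91 to 11.2 CPM, 25.7 CPM of Col4a1 and Col4a2, 0.787 CPM of Col4a3 and Col4a4, 28.5 CPM of the 3 type VI chains and 3.36 CPM of Col12a1; its smooth muscle markers summed to 411 CPM and its mitochondrial share was 39.3%.

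In O_CKP jejunum at day 4, replicate 4 held 14.8 CPM of the fibrillar chains, 12.6 CPM of Col4a1 and Col4a2 and 14.6 CPM of the type VI chains. In O_VC jejunum at day 4, replicate 4 held 10.8 CPM of the fibrillar and 7.18 CPM of the type VI chains. In O_CKP jejunum at day 7, replicate 5 held 31.8 CPM of the fibrillar chains. In I_CKI jejunum at day 7, replicate 6 held 19.3 CPM of the type VI chains. In NT colon, one day 4 library held 46.2 CPM of Col4a1 and Col4a2 and one day 7 library 3.84 CPM of Col4a3 and Col4a4.

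Among single chains, Col7a1 reached 7.54 CPM in one I_VC colon library at day 7, 2.29 CPM in NT colon at day 4, 5.83 CPM in NT jejunum at day 7 and 1.21 CPM in O_VC colon at day 4. Col17a1 reached 5.27 CPM in NT colon at day 4 and 5.80 CPM in O_CKP jejunum at day 7. Col18a1 reached 26.7 CPM in I_CKI jejunum at day 7, 21.5 CPM in NT jejunum at day 4 and 43.4 CPM in O_VC colon at day 4.

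The response to irradiation differed between jejunum and colon (edgeR interaction term, jejunum minus colon on the log2 scale) at day 7 for Col17a1 (-7.21), Col7a1 (-4.47), Col16a1 (-4.41), Col4a5 (-2.65), Col9a1 (-1.31), Col11a2 (2.71) and Col13a1 (3.60). At day 4 it differed for Col17a1 (-7.14), Col5a1 (-3.93), Col4a5 (-3.03), Col13a1 (2.32) and Col11a2 (2.73).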

How the results depend on the processing

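Counts of members called follow, with the reported count in brackets. The share of all genes called under each alternative is not given beside them. With library series 1 alone they were 11 in NT colon at day 4 against NI [23], 4 in NT jejunum at day 4 [7] and 4 at day 7 [11], 0 under powder in colon at day 4 [3], and, between days, 14 in NT colon [7], 20 in O_CKP colon [8], 0 in NT jejunum [10], 1 in O_VC jejunum [14] and 3 in O_CKP jejunum [10]; the tissue difference gave 3 at day 4 [5] and 13 at day 7 [7]. With series 2 alone they were 14 in NT colon at day 4 [23] and 13 at day 7 [26], 20 in NT jejunum at day 7 [11], 0 under powder in colon at day 4 [3], and, between days, 1 in O_VC colon [4] and 6 in O_CKP jejunum [10]. With the mitochondrial share as covariate they were 11 in NT colon at day 4 [23] and 2 at day 7 [26], 6 in NT jejunum at day 7 [11], and, between days, 1 in NT colon [7] and 6 in NT jejunum [10]; Col18a1 in NT colon at day 7 turned to -0.48. With only the 2 groups compared they were 4 in NT jejunum at day 4 [7], 1 under powder in colon at day 4 [3], and, between days, 4 in NT colon [7], 7 in I_CKI colon [4] and 5 in O_VC jejunum [14]. With no low count filter the powder count was 1 [3], and with DESeq2 the day 4 tissue difference gave 9 [5]. Without the pair of high libraries the counts were 14 in NT colon at day 7 [26] and, between days, 15 in NT colon [7] and 12 in I_VC colon [3]. Fewer libraries entered the single-series fits; the other causes were not tested.

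Leaving out each replicate number in turn gave 24 to 26 calls in NT colon at day 7, 18 to 24 at day 4, 6 to 17 in NT jejunum at day 7, 5 to 7 at day 4 and 0 to 2 under powder in colon at day 4. Between days it gave 5 to 10 in NT, 3 to 5 in O_VC, 8 to 12 in O_CKP, 1 to 4 in I_VC and 2 to 8 in I_CKI colon, and 4 to 13, 4 to 17, 7 to 11, 5 to 7 and 8 to 11 in the same arms of jejunum. It gave 16 to 17 between non-irradiated tissues, and 7 to 8 and 3 to 6 for the tissue difference at day 7 and day 4. In the 11 comparisons with no call, none of 137 alternatives gave one. Among these alternatives, DESeq2 for injection in jejunum at day 4 gave the members no adjusted p, so it could not give a call.

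Same-numbered libraries of one tissue did not meet the rule for pairs. Between colon and jejunum they correlated at 0.0945 to 0.242 in O_CKP at day 4, where 5 of 6 correlated best with their own number, and at 0.0369 to 0.463 in I_CKI at day 4 (4 of 6); the labels do not say whether the tissues share rats. The replicate block gave 9 calls between days in O_VC jejunum [14] and moved no other count by over 1.5 times. Of 2309 values of single chains over all alternatives, 1925 kept direction and call, 383 lost the call and 1 turned. Chains under about 0.5 CPM rest on few counts at these depths.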
